A study of Mus musculus with 3 samples.

Results

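This account describes the mature microRNAs (miRNAs, short RNAs that guide repression of messenger RNAs) of the imprinted Dlk1-Dio3 region in mouse visceral white fat. Members were taken by hairpin number, with no measured value used: all rows, either arm, of 48 hairpin numbers of the region, with letter suffixes allowed. The rule found 103 of the 1251 rows in the table, from 52 hairpins, of which 51 (102 rows) lie in the region. The exception is miR-496b, taken in by its number, whose hairpin is annotated on chromosome 19 and whose 1 row held no counts above the floor in any mouse. Small RNA was sequenced from epididymal fat, snap-frozen, of 3 C57BL/6J mice, numbered 1, 3 and 9. All 3 had received a high-fat diet containing the omega-3 fatty acid eicosapentaenoic acid (EPA) for 11 weeks, beginning at 5 to 6 weeks of age, and were fasted for 4 h before the tissue was taken. Fat supplied 45%, protein 20% and carbohydrate 35% of the diet's energy, and the EPA content was 6.75%, on a basis that is not stated. With 1 group and no control diet analysed here, no value measures an effect of EPA. Only the sample titles mark the samples as separate, so p-values reflect variation among these 3 samples only, and that variation may be technical.

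The genes of the region are each expressed chiefly from 1 parental chromosome. The paternal copy gives Dlk1 (also called Pref-1, a transmembrane inhibitor of adipocyte differentiation), Rtl1 (a retrotransposon-derived gene) and Dio3 (the enzyme that inactivates thyroid hormone), while the maternal copy gives the long noncoding RNAs Meg3, Rian and Mirg together with the miRNAs described here. The miRNAs are best known from brain, embryo and placenta, and several are studied in muscle repair and in islets. Those that lie opposite Rtl1 on the other strand, among them miR-127 and miR-136, are fully complementary to the Rtl1 transcript and can direct its cleavage.

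Hairpins were placed by GENCODE M21, on GRCm38 (equal to mm10). On chromosome 12, 51 of the 52 hairpins lie between Dlk1 and Dio3, spread over 180.1 kb, and 50 of them are on the plus strand (the exception is Mir299b, opposite Mir299a). Mir496b lies at chr19:16314892-16315004 on the minus strand. The 51 fall into 4 groups along the chromosome. The first holds 6 hairpins from Meg3 up to Rtl1, the second 5 hairpins on the strand opposite Rtl1, the third 3 hairpins inside Rian, and the fourth 37 hairpins from miR-379 to miR-410. Of the fourth, 12 lie inside annotated Mirg.

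The 9 most abundant members, each averaging 100 normalized counts or more over the 3 mice, are shown with their mature sequences because the results turn on them. Sequences are from RefSeq (GRCm38.p6), which held 99 of the 103 members, and bases 2 to 8, the seed that selects targets, are in capitals. miR-376c-3p, miR-485-5p, miR-487b-3p and miR-539-3p had no entry.
miR-127-3p: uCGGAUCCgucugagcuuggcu
miR-434-3p: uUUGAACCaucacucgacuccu
miR-411-5p: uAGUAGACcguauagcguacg
miR-434-5p: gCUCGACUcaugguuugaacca
miR-381-3p: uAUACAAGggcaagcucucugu
miR-410-3p: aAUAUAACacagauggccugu
miR-409-3p: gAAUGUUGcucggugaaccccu
miR-300-3p: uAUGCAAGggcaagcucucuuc
miR-337-5p: cGGCGUCAugcaggaguugauu
These 9 miRNAs have 9 different seeds, so no abundant pair shares its target-selecting bases. Over all members with a sequence there were 92 seeds, of which 7 were shared by 2 members each. The seed of miR-410-3p is also that of miR-344d-3p and miR-344e-3p, from outside the region, both at the floor in all mice.

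Levels are given as log2(normalized count + 10), the deposited scale, on which 3.32 is the floor, and a miRNA is called seen where it stands above that. The depth of each library is unknown (the design text gives only an approximate 13.8 M mapped reads for a sample), so no counting interval is given. The number of samples limits the precision, and a row at the floor may hold a miRNA present below what these libraries could detect. All 6 miRNAs of an adipocyte-enriched list were seen in all 3 mice, with row means of 9.68 (miR-107-3p) to 17.10 (miR-143-3p). Their presence does not by itself show which cells they came from. The hepatocyte marker miR-122-5p and 5 of 6 testis and germ cell miRNAs were at the floor in all mice, while miR-34c-5p averaged 7.67. Levels of different miRNAs are compared without correction for unequal capture of their sequences.

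The region contributed a small part of the fat's miRNA, and most of its members were not seen. All members together held 0.975% of the summed normalized counts in mouse 1, 0.552% in mouse 3 and 0.686% in mouse 9, or 0.737% ± 0.216 (SD, n = 3). Of the 103 rows 25 were above the floor in all 3 mice (24.3%), near the 22.9% of all 1251 rows, so this share did not set the region apart. A further 5 were seen in 2 mice, 12 in 1 mouse and 61 in none. Rows seen in at least 1 mouse made up 40.8% of the members and 29.0% of the table, a difference that was not tested. Counted by hairpin, 21 of 52 had an arm seen in all 3 mice, 9 others had one seen in 1 or 2 mice, and 22 had none. Among members seen in all 3 mice the median level was 5.68, against 8.02 for all 287 such rows of the table. Of the 103 members 9 averaged 100 normalized counts or more, against 194 of all 1251 rows.

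**Figure D1:**
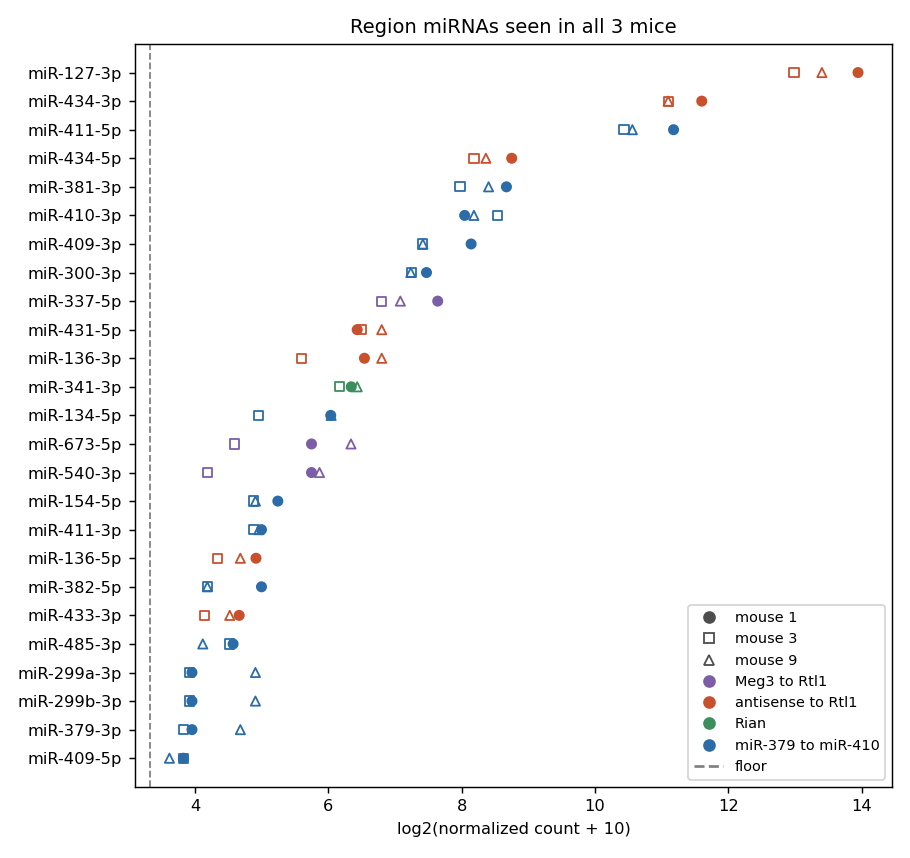
Level of each of the 25 region miRNAs seen in all 3 mice, as log2(normalized count + 10), with 1 symbol per mouse and colour for the group along the chromosome; the dashed line is the floor at 3.32. miR-127-3p stands highest in every mouse, at 12.98 to 13.94, and most rows below miR-337-5p lie within a few log2 units of the floor.

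The hairpins opposite Rtl1 carried most of the region's signal, and miR-127-3p most of that. This miRNA, which can cleave Rtl1 messenger RNA, stood at 13.94 in mouse 1, 12.98 in mouse 3 and 13.40 in mouse 9 (13.44 ± 0.48, SD, n = 3). In normalized counts above the floor that is 15736, 8091 and 10809, which put miR-127-3p at ranks 28, 39 and 35 of the table. It was highest in mouse 1 and lowest in mouse 3, and made up 67.1%, 61.0% and 65.5% of all counts of the members in mice 1, 3 and 9.

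miR-434-3p, from the neighbouring hairpin, stood at 11.60 in mouse 1 and 11.10 in mice 3 and 9 (11.26 ± 0.29). It took 14.3% ± 1.86 of the members' counts. Its partner strand miR-434-5p was also abundant, at 8.75, 8.18 and 8.36 in mice 1, 3 and 9. Both arms were highest in mouse 1, and the 3p arm stood above the 5p arm in every mouse.

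The other 3 hairpins opposite Rtl1 were far lower. miR-431-5p, studied in muscle regeneration, stood at 6.43, 6.49 and 6.80 in mice 1, 3 and 9, just below the filter with a mean of 86.0 normalized counts. miR-136-3p, the second Rtl1-cleaving miRNA named above, stood at 6.54, 5.60 and 6.80, and its other arm miR-136-5p at 4.91, 4.34 and 4.68. Mouse 3 was lowest for both arms of miR-136. miR-433-3p stood at 4.66, 4.15 and 4.52. All 5 hairpins of this group had an arm seen in all 3 mice, and 7 of its 10 rows were seen throughout. The group held 81.9% ± 1.27 of the members' counts, the lowest mouse being 80.5% and the highest 83.0%.

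The Mir127 and Mir434 hairpins are printed because their arms hold the 3 largest values of this group. Mature strands are in capitals, 5p first, and Mir127 is at chr12:109592846-109592915 and Mir434 at chr12:109594506-109594599, both on the plus strand of GRCm38, opposite Rtl1 (chr12:109589193-109600330, minus strand).
Mir127: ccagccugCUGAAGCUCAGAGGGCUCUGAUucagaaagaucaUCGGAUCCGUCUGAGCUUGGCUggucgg
Mir434: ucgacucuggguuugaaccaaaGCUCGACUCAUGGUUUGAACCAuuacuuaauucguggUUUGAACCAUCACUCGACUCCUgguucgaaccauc

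Between Meg3 and Rtl1, 3 of 6 hairpins had an arm seen in all mice. miR-337-5p led this group with 7.64, 6.80 and 7.08 in mice 1, 3 and 9 (7.17 ± 0.43). miR-673-5p stood at 5.75, 4.59 and 6.34, and miR-540-3p at 5.75, 4.19 and 5.87. Mouse 3 was the lowest for all 3 of these miRNAs. miR-540-5p and miR-665-3p were seen in mouse 9 alone, and both arms of miR-770, which lies within Meg3, and of miR-493 were at the floor in every mouse. The group held 1.25% ± 0.353 of the members' counts.

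Rian, best known as the host of a large set of small nucleolar RNAs, contains 3 of the hairpins. Only miR-341-3p was seen among its 6 rows, at 6.34, 6.16 and 6.43 in mice 1, 3 and 9, with little difference between the mice. Both arms of miR-370 and of miR-1188 were at the floor throughout.

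The long cluster from miR-379 to miR-410 was led by a single miRNA, with 14 of its 74 rows seen in all 3 mice. miR-411-5p stood at 11.18 in mouse 1, 10.43 in mouse 3 and 10.56 in mouse 9 (10.72 ± 0.40), and made up 9.75% ± 0.637 of the members' counts. Next came miR-381-3p, one of the neuronal activity-regulated miRNAs of this cluster, at 8.67, 7.97 and 8.40. miR-410-3p, studied in insulin secretion, stood at 8.04, 8.53 and 8.18. It was the only one of the 9 abundant members with its highest value in mouse 3.

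miR-409-3p stood at 8.14, 7.41 and 7.42 and miR-300-3p at 7.47, 7.25 and 7.24 in mice 1, 3 and 9. Mouse 1 was highest for both, and mice 3 and 9 were nearly level. miR-134-5p, which limits dendritic spine growth in neurons through Limk1, stood at 6.04, 4.96 and 6.04. Lower still were miR-154-5p (5.01 ± 0.20), miR-411-3p (4.94 ± 0.06), miR-382-5p (4.46 ± 0.47), miR-485-3p (4.40 ± 0.25) and miR-379-3p (4.15 ± 0.46). miR-409-5p averaged 3.76 ± 0.12, the lowest of the rows seen throughout. miR-299a-3p and miR-299b-3p had equal values in each mouse (4.26 ± 0.56). The 18 bases of miR-299b-3p are contained in the 22 bases of miR-299a-3p, so the 2 rows cannot be told apart. Both are counted among the rows and hairpins seen in all mice. The same holds for miR-299a-5p and miR-299b-5p, whose 21 bases are contained in the 22 of miR-299a-5p. Their values were equal, above the floor in mouse 9 alone, and both are counted among the rows seen in 1 mouse.

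Several well-known hairpins of this cluster gave nothing above the floor. They include all 6 rows of miR-376a, miR-376b and miR-376c, a family known for adenosine-to-inosine editing of its seed, and both arms of miR-494, miR-495, miR-541, miR-377, miR-487b and miR-539. Seen in 2 mice were miR-127-5p, miR-329-5p, miR-379-5p, miR-369-5p and miR-496a-3p. Of these miR-329-5p reached 5.64 in mouse 1 and 4.91 in mouse 9 and was at the floor in mouse 3. Of the 12 rows seen in a single mouse, miR-540-5p stood highest, at 4.91 in mouse 9. Another 15 rows of hairpins annotated in the region but outside the rule, among them both arms of miR-3071 opposite Mir136 and of miR-1247 beside Dio3, were at the floor in all mice.

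**Figure D2:**
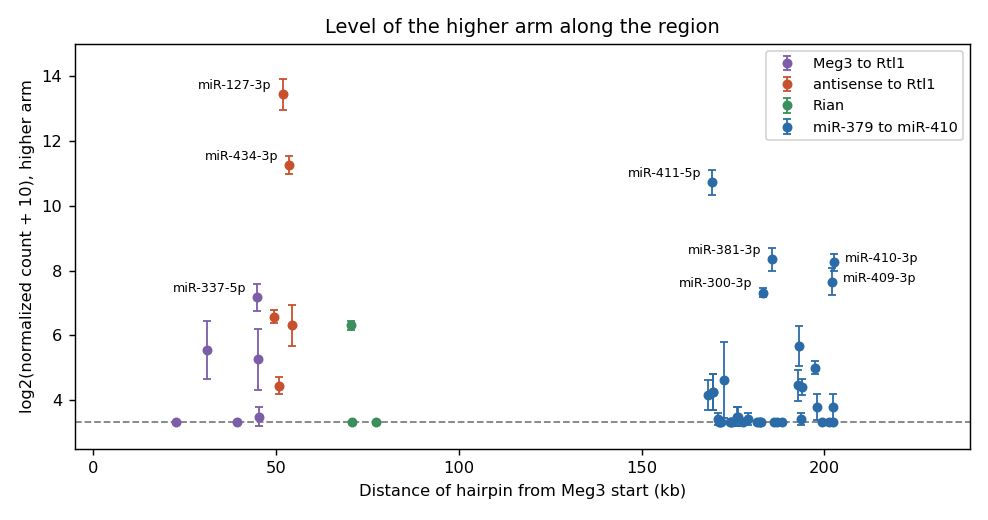
Mean level of the higher arm of each of the 51 hairpins on chromosome 12, as log2(normalized count + 10) with SD over 3 mice, against the distance of the hairpin from the start of Meg3 in kb; colours are the 4 groups and the dashed line is the floor. miR-127-3p at 51.8 kb and miR-434-3p at 53.5 kb stand beside hairpins more than 4 log2 units lower, as does miR-411-5p at 169.2 kb.

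High and low hairpins stood side by side. Mir379 (chr12:109709060-109709125) and Mir411 (chr12:109710175-109710256) are the first 2 hairpins of the long cluster, on the same strand, and are shown because their 5p arms differ so much in level. Mature strands are in capitals.
Mir379: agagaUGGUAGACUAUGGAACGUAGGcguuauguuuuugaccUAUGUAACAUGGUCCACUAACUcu
Mir411: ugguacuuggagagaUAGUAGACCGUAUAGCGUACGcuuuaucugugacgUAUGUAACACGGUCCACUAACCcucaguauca
miR-379-5p stood at 4.31 in mouse 1, 3.91 in mouse 3 and the floor in mouse 9, against 10.43 to 11.18 for miR-411-5p. Their 5p strands differ at 7 of 21 bases, 1 of them in the seed (A2G, from miR-411-5p to miR-379-5p, counted from 1 at the 5′ end). The 3p strands share a seed and differ by C10U and C22U alone (from miR-411-3p to miR-379-3p). Both were near the floor, at 4.94 ± 0.06 and 4.15 ± 0.46, where the added 10 narrows differences. In normalized counts miR-411-3p held 21.9, 19.3 and 21.1 in mice 1, 3 and 9, and miR-379-3p held 5.51, 4.18 and 15.6.

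miR-381-3p and miR-300-3p are near copies in the same cluster. Bases that differ are in capitals.
miR-381-3p: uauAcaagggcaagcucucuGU
miR-300-3p: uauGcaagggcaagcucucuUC
From miR-381-3p to miR-300-3p the changes are A4G, in the seed, and G21U and U22C at the end. miR-381-3p stood above miR-300-3p in every mouse, by mean levels of 8.35 ± 0.35 and 7.32 ± 0.13. The counting rule for reads that match both, or that end before base 21, is not given in the sources used here, so the split between these 2 rows is uncertain.

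Neighbours in the order of abundance were separated in some places and not in others. Among the 9 abundant members, 4 of the 8 neighbouring pairs kept their order in all 3 mice: miR-127-3p above miR-434-3p, miR-434-3p above miR-411-5p, miR-411-5p above miR-434-5p, and miR-409-3p above miR-300-3p. The ranges over mice did not overlap for 2 pairs, miR-127-3p over miR-434-3p and miR-411-5p over miR-434-5p. Each adjacent pair among miR-434-5p, miR-381-3p, miR-410-3p and miR-409-3p kept its order in 2 of 3 mice, although miR-434-5p and miR-381-3p each stood above miR-409-3p in all 3. Further down, miR-341-3p stood above miR-134-5p in all mice with no overlap.

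Most of the 8 abundant hairpins had the 3p strand higher. The log2 ratio of the 5p to the 3p arm was tested against 0 with a two-sided, one-sample moderated test in limma over the 129 hairpins of the table whose larger arm had a mean of at least 100, with Benjamini-Hochberg adjustment and a threshold of 0.05. All 8 member hairpins tested were called, 6 with the 3p arm higher and 2 with the 5p arm higher. Of all 129 hairpins 46.5% were called 3p and 51.2% 5p, so a call by itself does not mark the region. Hairpins entered the test through their larger arm, so the filter favoured unequal arms and such calls. For miR-381, miR-410, miR-300 and miR-337 the smaller arm was at the floor in all mice, so the larger was compared with the constant. The median size of the ratio, on the log2(normalized count + 10) scale, was 4.46 for the 8 and 5.14 for all 129.

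The widest ratio was that of miR-127, at -9.03, -9.66 and -9.78 in mice 1, 3 and 9 (mean -9.49, SE 0.22, n = 3, limma adjusted p = 1.42e-06). Its 5p arm was at the floor in mouse 3, and the mean ratio was -11.40 with an added constant of 1 and -7.90 with 40. miR-381 (-5.03, SE 0.21, limma adjusted p = 1.27e-05), miR-410 (-4.93, SE 0.19, 9.73e-06) and miR-300 (-4.00, SE 0.24, 4.71e-05) had no 5p reads above the floor in any mouse, so the size of their ratios is set by the floor.

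Both arms were seen throughout for miR-409, miR-434, miR-411 and miR-136. miR-409 had a ratio of -3.90 (SE 0.23, limma adjusted p = 4.30e-05), but its 5p arm held only 2.27 to 4.18 normalized counts, fewer than the added 10, and the ratio was -5.44 with a constant of 1 and -2.42 with 40. miR-434, abundant in both arms, moved little with the constant (-2.87 with 1 and -2.73 with 40). It was also the steadiest between mice, with -2.85, -2.91 and -2.73 in mice 1, 3 and 9 (mean -2.83, SE 0.17, limma adjusted p = 4.32e-05). miR-136, below the filter and not tested, had -1.63, -1.26 and -2.12.

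The 5p arm led in miR-411, at 6.18, 5.56 and 5.60 in mice 1, 3 and 9 (mean 5.78, SE 0.18, limma adjusted p = 4.12e-06), and in miR-337, at 4.32, 3.48 and 3.76 (mean 3.85, SE 0.30, limma adjusted p = 1.25e-04), whose 3p arm was at the floor in all mice. The ratio was 6.27 and 4.82 for miR-411, and 7.08 and 2.13 for miR-337, with constants of 1 and 40. Every tested hairpin had the same sign in 3 of 3 mice. Of the 30 hairpins with both arms listed and any arm seen, 13 had the 3p arm higher in all mice, 7 the 5p arm, and 10 neither. The 13 include both miR-299a and miR-299b, whose values were equal in each mouse. Neighbours could differ in strand: miR-431 kept the 5p arm (ratio 3.11, 3.17 and 3.48), while miR-433 and miR-127 beside it kept the 3p arm.

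**Figure D3:**
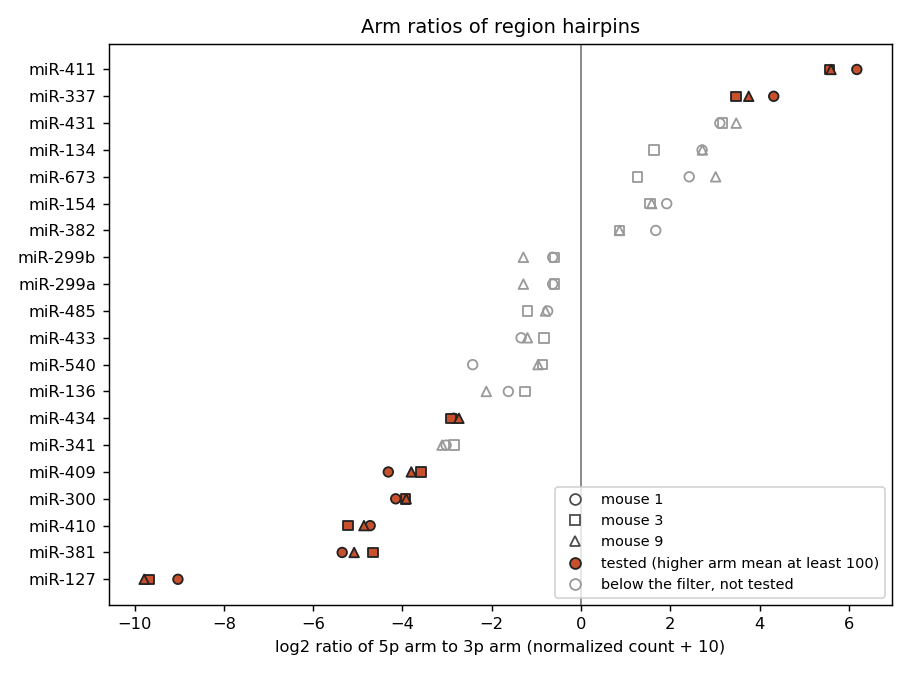
Log2 ratio of the 5p to the 3p arm, on the log2(normalized count + 10) scale, for the 20 region hairpins with the same sign in all 3 mice, with 1 symbol per mouse; filled symbols are the 8 tested hairpins and values right of 0 have the 5p arm higher. miR-127 lies furthest to the 3p side, at -9.03 to -9.78, and miR-411 furthest to the 5p side, at 5.56 to 6.18.

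The abundant members tended to stand high together in 1 mouse. Of the 9, 8 had their highest value in mouse 1, where 27.8% of all 194 rows at this level did, and 6 had their lowest in mouse 3, where 39.2% of all did. From mouse 3 to mouse 1 the median difference was 0.70 log2 units over the 9, with a range of -0.49 (miR-410-3p) to 0.96 (miR-127-3p), against 0.04 over all 194. Mouse 1 also exceeded mouse 9 for 8 of the 9, with a median of 0.50 against 0.00 over all, while between mice 3 and 9 the median was -0.12 against -0.06. The 9 share a region and in part transcripts, so they are not 9 independent measurements, and the mice differ in no labelled treatment.

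Of all 25 members seen in all mice, these 9 included, 14 were highest in mouse 1 (56.0%, against 28.9% of all 287 such rows), 9 in mouse 9 (36.0% against 35.2%) and 1 in mouse 3, with 1 tie. Mouse 3 was lowest for 18 of the 25 (72.0%, against 42.9% of the 287). In bulk tissue, fewer cells of a type and less RNA per cell cannot be told apart.

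**Figure D4:**
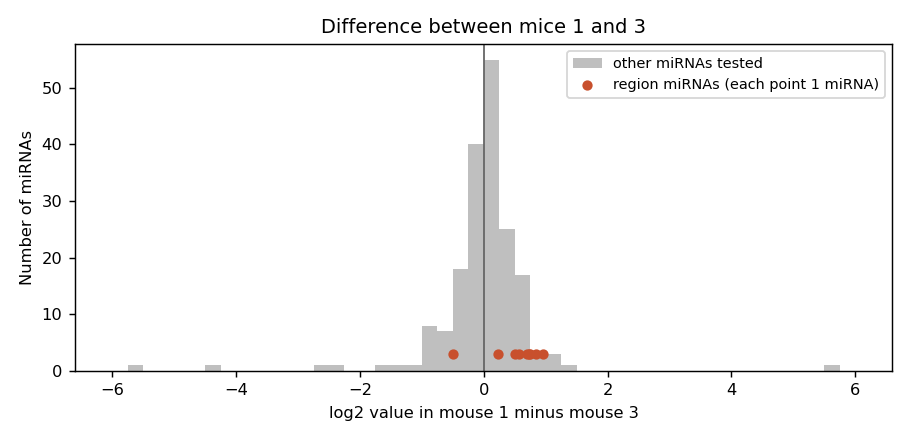
Log2 value in mouse 1 minus that in mouse 3 for the 194 miRNAs that averaged 100 normalized counts or more. Grey bars count the 185 miRNAs outside the region in steps of 0.25 and each orange point is 1 of the 9 region miRNAs (their height has no meaning); 8 points lie right of 0, up to 0.96, and miR-410-3p lies at -0.49.

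Markers of other cell types also differed between the mice. The summed level of 4 striated muscle miRNAs was 11.94 in mouse 1 against 16.39 in mouse 3 and 16.03 in mouse 9. Of the 4, 2 were seen in all mice, and row means ran from 3.49, near the floor, to 14.78 for miR-133a-3p. The value in mouse 1 minus that in mouse 3 was -4.44 for miR-133a-3p and -5.66 for miR-133b-3p, the 2 largest falls of all 194 rows. These 2 muscle miRNAs were thus both lower in mouse 1. The sum largely reflected miR-133a-3p, the more abundant, and does not show that all 4 differed together. Erythroid miRNAs summed to 12.74, 12.20 and 12.07 in mice 1, 3 and 9 (1 of 2 seen throughout), and 4 stromal miRNAs, all seen, to 15.02, 14.92 and 14.81. Endothelial miRNAs (2 of 2 seen throughout) summed to 13.86, 14.38 and 13.94, leukocyte miRNAs (3 of 4) to 13.11, 13.06 and 13.16, and epithelial miRNAs (4 of 7) to 10.71, 11.88 and 9.84. Neuronal miRNAs, of interest because the region is active in brain, summed to 8.82, 9.26 and 9.31, with 4 of 5 seen throughout and the defining miR-124-3p at the floor in all mice. Over the members the sum was 14.52, 13.70 and 14.01. The part of other cell types in the members' levels was not tested.

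No member was called more variable between mice than the prior variance at its level. The variance test with a robust trended prior, Benjamini-Hochberg adjusted over 194 rows, called 0 of the 9 members and 2 rows in all (1.03%). Those 2 were the muscle miRNAs miR-133a-3p and miR-133b-3p. The smallest p among the members was that of miR-127-3p (SD 0.48, unadjusted p = 0.0365, limma adjusted p = 0.719), the only member of the 9 with an unadjusted p below 0.05, as had 12 of all 194 rows. The SD of 8 of the 9 members lay above the median SD of all 194 rows, 0.22, and the members' median was 0.35. miR-300-3p was the steadiest, with an SD of 0.13.

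The first base and GC content of the mature strands were compared between members seen and not seen. Of 25 members seen in all mice 13 began with U (52.0%), as did 22 of 58 at the floor (37.9%), against 42.6% of 249 and 34.8% of 692 such rows of the whole table with a sequence. Median GC content was 50.0% for the 25 and 47.5% for the 58, while over the whole table it was 47.8% for rows seen in all mice and 50.0% for rows at the floor. No test was made on these shares.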

How the data were processed

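The deposited table holds a log2 value for every mature miRNA in each mouse. The authors used the Gunaratne sequencing pipeline, scaled read counts by total usable reads and raised each by 40, per the series' design text. Reads were mapped to mm10, per the submitters' processing notes. Neither aligner nor miRNA annotation is given in the sources used here. The lowest value corresponds to 10, not 40, so 10 was taken as the constant and removed for linear counts and shares. Sorted columns were nearly equal: 121 of 336 ranks above the floor had the same value in all mice within 1e-06. The largest difference at a rank was 0.34 log2 units. Totals are therefore nearly equal, and differences between mice largely reflect rank.

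Arm ratios and variances were fitted with limma 3.58.1 (R 4.3.3) over all hairpins or rows with a mean of at least 100, with prior trend, and robustly for variances (a choice made because the plain prior recovered fewer simulated variable rows). Adjustment was Benjamini-Hochberg at 0.05, and both tests were tried on simulated data. Named miRNAs were the members with a mean of at least 100, the leaders of each group and those seen in all mice, with others chosen after their values were seen. Members, lists and tests were chosen with earlier results of these data known. Python 3.11.15, numpy 2.4.6, pandas 2.3.3 and matplotlib 3.10.9 were used. Alternatives were other constants, filters, detection levels, scaling and priors, and leaving out each mouse.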

Additional observations from a re-analysis of the deposited data

How the results depend on the processing

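All 70 alternative arm ratios of the 8 tested hairpins kept their direction and call, with an adjusted p of at most 0.00621 by limma. The 8 were chosen by their larger arm, which favours such calls in every setting. The size of the ratios moved with the constant, beside the cases given above. From constant 1 to constant 40 the ratio went from -7.23 to -2.25 for miR-300. For miR-381 it went from -8.31 to -3.16, and for miR-410 from -8.21 to -3.07. The number of hairpins called moved with the filter, which sets how many are tested. Without it 7 of 30 member hairpins were called 5p and 13 were called 3p. With a mean of at least 1000, or with both arms above the floor in all mice, 1 of 3 was called 5p and 2 were called 3p. Rows seen in all mice fell from 25 to 9 when seen meant above 100 normalized counts. Members highest in mouse 1 numbered 3 of 3 with a mean of at least 1000, and 20 of 42 with no filter. Shares over the whole table are not given for these filters and detection levels, so none of these counts is read as particular to the region. miR-341-3p, near the floor, averaged 6.12 with the constant removed, 6.14 with a constant of 1 and 6.78 with 40. No member passed the variance test under any alternative run. Leaving out 1 mouse at a time kept the arm and variance calls, and the members' share was 0.619% to 0.830%. No paired analysis was possible because there is 1 group. The unknown depth leaves detection near the floor uncertain.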

Other observations

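Of 90 rows taken by number for other imprinted loci, 4 were seen in all 3 mice (4.44%). miR-335-3p, from the paternally expressed Mest gene, stood at 10.70, 10.13 and 10.87 in mice 1, 3 and 9, and its other arm miR-335-5p averaged 6.71 ± 0.82 (SD, n = 3). At the Gnas locus miR-298-5p stood at 7.96, 6.89 and 7.32 and miR-296-5p at 4.91, 4.66 and 3.96. None of 80 rows from families with hairpins in the Sfmbt2 intron was seen in all mice, and 3 were seen in 1 mouse. The positions of these 80 were not checked, so some may lie outside imprinted loci. Both arms of miR-675 (H19) and of miR-483 (Igf2) were at the floor throughout. Whether this share differs from that of the Dlk1-Dio3 region was not tested.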
